A study of Mus musculus with 16 samples.

Results

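The 10 core circadian clock genes *Arntl*, *Clock*, *Npas2*, *Per1*, *Per2*, *Per3*, *Cry1*, *Cry2*, *Nr1d1* and *Dbp* were followed in 2 hindlimb muscles, the gastrocnemius (Gas), which is fast-dominant, and the soleus (Sol), which is rich in slow fibers. They were chosen by name, as rows of the count tables of both muscles, and were 10 of 24421 genes. All 10 were found in both tables, and all 10 had enough reads to be tested in each muscle.

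The circadian clock of mammalian cells is a feedback loop of transcription. *Arntl* (BMAL1) pairs with *Clock* or its paralog *Npas2* and activates the Per and Cry genes through E-boxes, and the PER and CRY proteins then inhibit that pair. *Nr1d1* (REV-ERBα), itself an E-box target, represses *Arntl* through RORE sites, and *Dbp*, a PAR bZIP factor driven by the same activators, binds D-boxes, among them those of Per genes, so that in muscle as elsewhere *Arntl* and *Npas2* peak at about the opposite time of day from *Dbp*, *Per2* and *Per3*. Glucocorticoids set the phase of peripheral clocks, and *Per1* is a direct target of their receptor.

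The study asked how the loss of the histone demethylase LSD1 in muscle fibers changes the response to dexamethasone, a synthetic glucocorticoid. All mice were male, of the C57BL/6 strain, 8 weeks old at the start of treatment and kept in a cycle of 12 h light and 12 h dark. WT mice carried the floxed *Lsd1* gene without CreERT2. LSD1-mKO mice carried the same floxed gene with CreERT2 driven by the human ACTA1 promoter, which acts in muscle fibers, so other cells of the tissue keep LSD1. Both genotypes were given 75 mg/kg of tamoxifen daily for 5 days. Daily dexamethasone, 1 mg/kg for 7 days, began on the fourth of these, and by the study's methods tissue was taken after fasting. Muscle without dexamethasone was not analysed here, and the time of day at which tissue was taken is not given in the sources used here. There were 3 WT and 5 LSD1-mKO libraries of each muscle. The labels number the replicates in both muscles but do not say whether a Gas and a Sol library with the same number came from 1 mouse, and they name no batch. The p-values below therefore measure the spread between these samples.

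Depth was 10130415 to 21594751 counted reads in the Gas and 13917962 to 24576377 in the Sol libraries. *Kdm1a*, the gene of LSD1, fell in LSD1-mKO by 1.56 ± 0.18 in Gas (log2 ± SE, adjusted p = 0.0177, edgeR quasi-likelihood test) and by 1.66 ± 0.14 in Sol (adjusted p = 0.000574), with no overlap between genotypes, which fits the labels. Ribosomal protein genes stood apart in 3 libraries. Their mean log2 CPM (counts per 1e6 reads, with library sizes scaled by the TMM method) reached 8.77 (WT Gas replicate 3), 8.04 (LSD1-mKO Gas replicate 5) and 7.39 (WT Sol replicate 2), against 7.19 to 7.57 in the other Gas and 6.50 to 6.94 in the other Sol libraries. Muscle fiber markers summed to between 64680 and 165000 CPM in every library, and markers of blood cells, fat, fibroblasts, endothelium, nerve sheath and satellite cells were also present, none at 0 in a whole group. In whole muscle, fewer cells of a type and less RNA per cell cannot be told apart.

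Promoter sequences show which motifs of the loop lie at the start of these genes. RefSeq windows of 300 bases around the transcription starts (GRCm38.p6) were found for 9 of the 10 members, in 13 windows, and not for *Per2*. They were searched on both strands for the E-box CACGTG (a palindrome, in 7.15% of all 32851 windows), the D-box core TATGTAA (2.83%), the RORE core AGGTCA (16.3%), the glucocorticoid receptor half-site AGAACA (19.0%) and the CRE core TGACGTC (3.21%). The E-box was found in *Per1* and *Cry1*, the D-box core in *Per3*, the RORE core in *Arntl*, *Clock* and *Per1*, the CRE core in *Per1*, and the glucocorticoid half-site in 0 of the 9 members. The 6 windows below are shown because they hold the motif of a member or of a factor that acts on members, and the other 7 hold none of these motifs. Capitals mark the motif, and positions count from the transcription start. In the first *Per1* window (chr11:69098699-69098998, plus strand) the E-box began at -166 and the RORE core, on the reverse strand, at -137.
*Per1* window 1: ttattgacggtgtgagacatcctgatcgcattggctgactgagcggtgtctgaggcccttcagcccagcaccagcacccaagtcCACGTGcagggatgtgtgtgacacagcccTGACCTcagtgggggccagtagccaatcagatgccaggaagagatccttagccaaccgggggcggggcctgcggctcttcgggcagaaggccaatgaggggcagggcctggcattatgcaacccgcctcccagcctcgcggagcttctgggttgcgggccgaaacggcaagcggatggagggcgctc
The second *Per1* window (chr11:69099902-69100201, plus strand) held the CRE core at -132.
*Per1* window 2: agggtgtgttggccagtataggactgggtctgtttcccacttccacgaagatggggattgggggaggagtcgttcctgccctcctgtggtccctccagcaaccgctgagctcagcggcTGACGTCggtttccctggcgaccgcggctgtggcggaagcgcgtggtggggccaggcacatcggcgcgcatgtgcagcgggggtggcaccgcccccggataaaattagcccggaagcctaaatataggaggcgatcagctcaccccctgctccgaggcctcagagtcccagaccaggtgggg
*Per3* (chr4:151044616-151044915, minus strand) was the only 1 of the 9 with a D-box core, which it held at -204 and again at -157.
*Per3*: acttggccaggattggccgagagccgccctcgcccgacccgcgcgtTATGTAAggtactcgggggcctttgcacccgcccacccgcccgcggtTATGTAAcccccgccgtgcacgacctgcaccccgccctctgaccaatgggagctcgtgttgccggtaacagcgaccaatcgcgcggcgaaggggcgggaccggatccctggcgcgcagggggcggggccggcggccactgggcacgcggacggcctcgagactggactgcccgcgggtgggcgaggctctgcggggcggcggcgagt
*Cry1* (chr10:85185005-85185304, minus strand) held its E-box at -60.
*Cry1*: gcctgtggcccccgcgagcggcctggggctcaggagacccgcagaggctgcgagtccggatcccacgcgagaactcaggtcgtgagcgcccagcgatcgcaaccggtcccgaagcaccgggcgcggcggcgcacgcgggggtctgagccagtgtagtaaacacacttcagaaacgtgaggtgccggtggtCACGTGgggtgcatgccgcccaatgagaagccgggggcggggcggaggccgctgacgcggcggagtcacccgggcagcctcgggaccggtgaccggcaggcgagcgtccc
The second *Arntl* window (chr7:113207261-113207560, plus strand) held the RORE core at 31, downstream of the start.
*Arntl* window 2: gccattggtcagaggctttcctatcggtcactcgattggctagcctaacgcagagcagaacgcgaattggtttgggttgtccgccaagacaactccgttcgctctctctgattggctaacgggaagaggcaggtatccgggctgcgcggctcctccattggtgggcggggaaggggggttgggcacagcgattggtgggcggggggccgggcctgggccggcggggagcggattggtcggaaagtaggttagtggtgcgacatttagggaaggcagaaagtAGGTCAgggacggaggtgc
The third *Clock* window (chr5:76303453-76303752, minus strand) held the RORE core, on the reverse strand, at -119.
*Clock* window 3: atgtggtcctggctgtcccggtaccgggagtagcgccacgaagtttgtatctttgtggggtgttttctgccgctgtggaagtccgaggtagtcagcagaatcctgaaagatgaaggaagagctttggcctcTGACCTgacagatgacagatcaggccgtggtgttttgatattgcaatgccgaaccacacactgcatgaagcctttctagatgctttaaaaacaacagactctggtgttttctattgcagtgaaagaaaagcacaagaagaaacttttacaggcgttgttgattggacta
These matches describe letters in a window and were not tested as binding sites.

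Per kilobase of exon, *Nr1d1* was the most abundant member in all 4 groups and *Npas2* the least. In WT Gas the level of *Nr1d1* was 106 ± 48.4 CPM per kb (mean ± SD, n = 3), that of *Dbp* 23.6 ± 7.39 and that of *Npas2* 0.635 ± 0.331. *Per1* (14.1 ± 3.05), *Cry2* (13.0 ± 0.462) and *Arntl* (10.1 ± 6.82) lay close together and did not differ beyond their spread. *Cry1* (4.09 ± 1.70), *Clock* (3.98 ± 1.59), *Per3* (2.01 ± 0.574) and *Per2* (1.52 ± 0.522) followed. *Npas2* rested on 14 to 155 reads per library, the fewest of the 10. On GRCm38, *Arntl* spans chr7:113207465-113314126 and *Dbp* chr7:45705088-45710203, both on the plus strand, and *Cry2* spans chr2:92403646-92434043 and *Nr1d1* chr11:98767932-98775333, both on the minus strand. Counting took no account of strand, and the exons of *Dbp* overlap those of *Sphk2* by 539 bp, those of *Nr1d1* overlap *Thra* by 263 bp, those of *Cry2* overlap the noncoding *D930015M05Rik* by 149 bp and those of *Arntl* overlap *Gm45355* by 33 bp, each on the opposite strand, so reads from those stretches cannot be assigned to 1 gene.

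**Figure D1:**
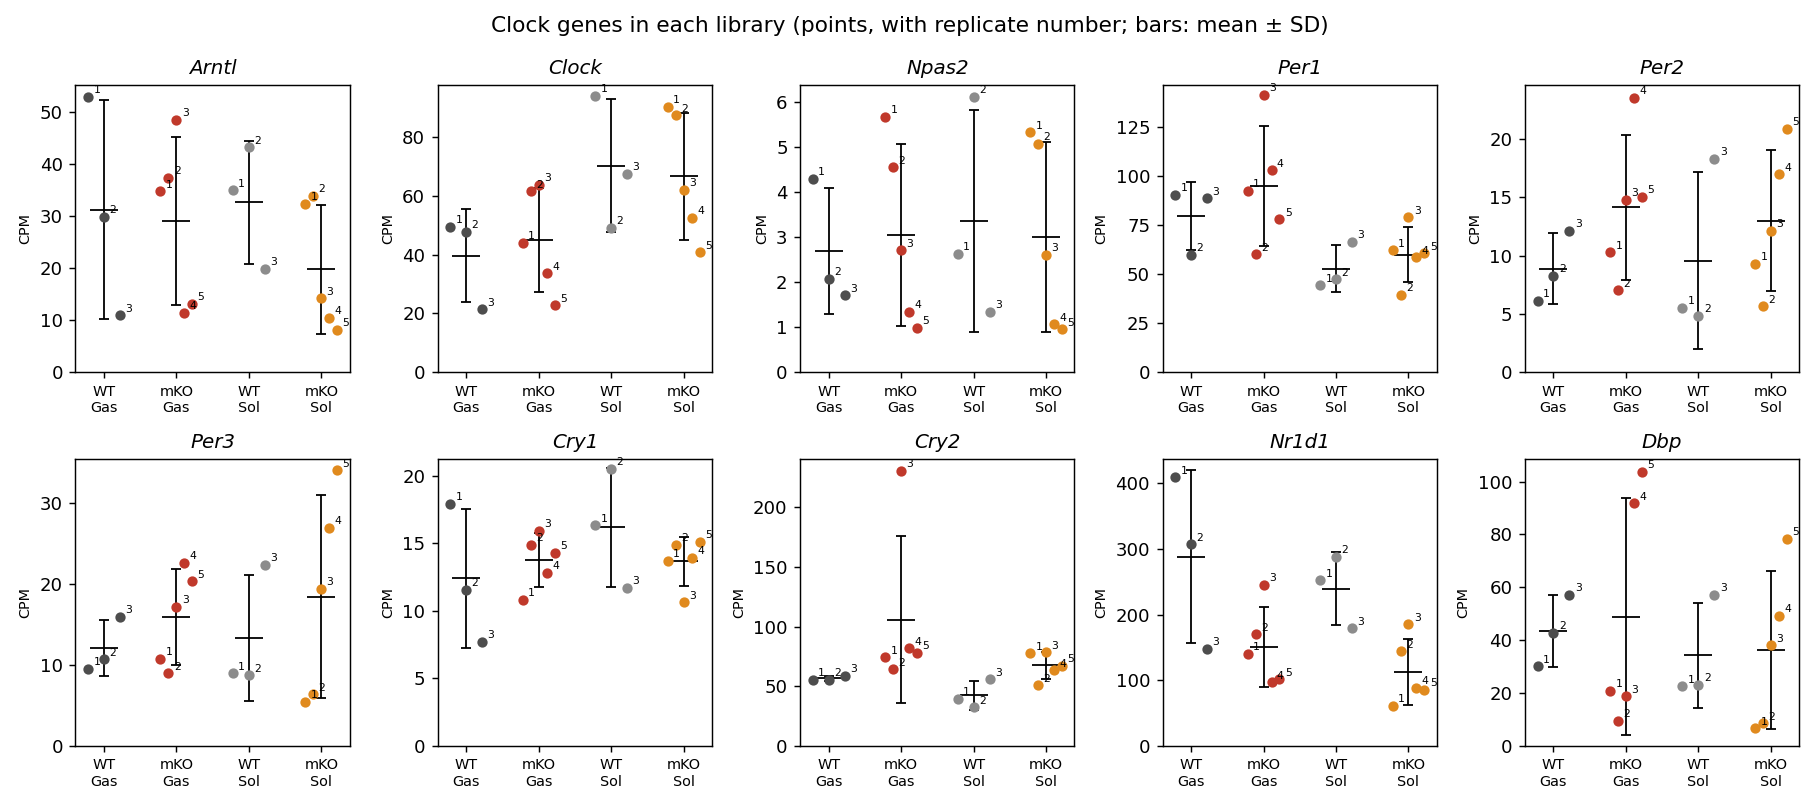
CPM (linear axis from 0) of each of the 10 clock genes in the 16 libraries, in 4 groups (WT and LSD1-mKO in Gas and Sol). Points are libraries with their replicate number, and bars give the mean ± SD of 3 WT or 5 LSD1-mKO libraries. *Dbp* spreads from 9.50 to 104 CPM within LSD1-mKO Gas, and 1 library of that group stands far above the rest in *Cry2*, at 231 CPM.

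*Arntl* and *Dbp* differed widely between replicates of the same group, and in opposite directions. *Arntl* was at 53.0, 29.9 and 10.9 CPM in WT Gas replicates 1, 2 and 3, and at 34.8, 37.4, 48.6, 11.4 and 13.1 CPM in LSD1-mKO Gas replicates 1 to 5. *Dbp* was at 30.1, 42.8 and 57.2 CPM in the same WT and at 20.9, 9.50, 18.8, 91.8 and 104 CPM in the same LSD1-mKO libraries. The 3 Gas libraries lowest in *Arntl*, WT replicate 3 and LSD1-mKO replicates 4 and 5, were the 3 highest in *Dbp*, and the genotypes overlapped in both genes.

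In Sol, *Arntl* was at 35.0, 43.3 and 19.9 CPM in WT replicates 1, 2 and 3, and at 32.3, 33.9, 14.2, 10.4 and 8.08 CPM in LSD1-mKO replicates 1 to 5. *Dbp* was at 22.5, 23.1 and 57.2 CPM in those WT and at 6.69, 8.54, 38.0, 49.2 and 78.3 CPM in those LSD1-mKO libraries. The 4 libraries lowest in *Arntl* were again the 4 highest in *Dbp*: WT replicate 3 and LSD1-mKO replicates 3, 4 and 5.

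The number of *Dbp* reads per *Arntl* read does not depend on how libraries are scaled. It was 0.567, 1.43 and 5.25 in WT Gas replicates 1 to 3 and 0.602, 0.254, 0.386, 8.08 and 7.93 in LSD1-mKO Gas replicates 1 to 5, a span of 31.8-fold. In Sol it was 0.642, 0.534 and 2.87 in WT and 0.207, 0.252, 2.68, 4.72 and 9.70 in LSD1-mKO, a span of 46.9-fold. Each muscle had 4 libraries with more *Dbp* than *Arntl* reads. WT replicate 3 and LSD1-mKO replicates 4 and 5 were among them in both muscles, LSD1-mKO replicates 1 and 2 and WT replicate 1 in neither, LSD1-mKO replicate 3 in Sol but not in Gas, and WT replicate 2 in Gas but not in Sol. Of the libraries with a high ribosomal protein level, WT Gas replicate 3 and LSD1-mKO Gas replicate 5 were low in *Arntl* and WT Sol replicate 2 was the highest Sol library in *Arntl*, while LSD1-mKO Gas replicate 4, with a ribosomal level of 7.21, was as low in *Arntl* as the first 2.

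**Figure D2:**
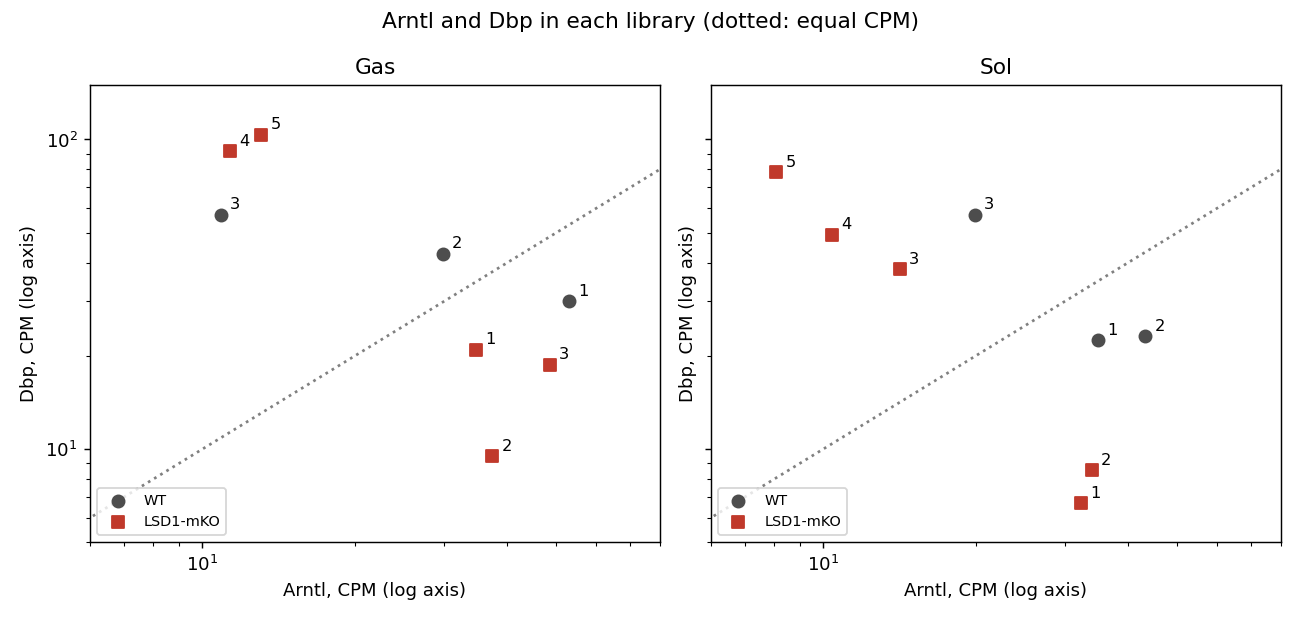
*Dbp* against *Arntl* (CPM, both on log axes) in the 8 Gas and the 8 Sol libraries, with circles for WT, squares for LSD1-mKO, and replicate numbers. Libraries run from high *Arntl* and low *Dbp* to low *Arntl* and high *Dbp* in both muscles, and 4 of each lie above the dotted line of equal CPM.

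*Npas2* and *Clock*, the partners of *Arntl*, varied with it. *Npas2* ranged from 0.976 to 5.66 CPM in LSD1-mKO Gas and from 0.944 to 5.32 CPM in LSD1-mKO Sol, with replicates 4 and 5 lowest in both muscles. *Clock* ranged from 22.7 to 63.7 CPM in LSD1-mKO Gas and from 40.7 to 90.3 CPM in LSD1-mKO Sol, again lowest in replicate 5. *Per2* and *Per3*, which inhibit the activator pair, went the other way. *Per3* was at 9.53, 10.7 and 15.99 CPM in WT Gas and at 10.8, 8.95, 17.2, 22.6 and 20.4 CPM in LSD1-mKO Gas replicates 1 to 5. In Sol it was at 8.98, 8.71 and 22.4 CPM in WT and at 5.45, 6.36, 19.5, 26.9 and 34.1 CPM in LSD1-mKO. WT replicate 3 and LSD1-mKO replicates 3, 4 and 5 were the 4 highest libraries in both muscles. The same 4 were highest in *Per2*, which ranged from 6.13 to 23.6 CPM over the Gas libraries and from 4.85 to 20.9 CPM over those of Sol.

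This spread within groups was wider than that of the median gene for all 10 members. The pooled SD of log2 CPM within groups was 1.32 for *Dbp*, 1.06 for *Npas2*, 0.94 for *Arntl*, 0.85 for *Per3*, 0.74 for *Per2*, 0.60 for *Nr1d1* and 0.57 for *Clock*, where the median of 9686 genes with a mean of at least 5 CPM was 0.298. Of those genes, 99.9% had a smaller SD than *Dbp* and 99.0% a smaller one than *Arntl*. *Cry1* (0.34) and *Per1* (0.39) varied little more than the median gene. *Npas2*, with a mean of 3.02 CPM, lies below the cut of the reference genes, so its SD is not compared at a like depth.

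Covariation of the members was measured as the correlation of log2 CPM, centred on the genotype means, over the 8 libraries of a muscle, for 45 pairs in each. *Arntl*, *Clock* and *Npas2* correlated positively with one another in both muscles (r 0.73 to 0.91 in Gas and 0.50 to 0.95 in Sol). *Per2*, *Per3* and *Dbp*, grouped here after their values were seen, did so too (r 0.81 to 0.96 and 0.82 to 0.99), and all 9 pairs between those 2 trios were negative in both muscles (r -0.89 to -0.63 in Gas and -0.99 to -0.51 in Sol). *Nr1d1*, *Per1*, *Cry1* and *Cry2* are in neither trio. Their r with *Arntl* was 0.96, 0.07, 0.64 and 0.30 in Gas and 0.15, -0.57, 0.35 and -0.42 in Sol. With *Dbp* it was -0.71, 0.12, -0.26 and -0.12 in Gas and 0.003, 0.54, -0.30 and 0.33 in Sol. *Nr1d1*, though an E-box target, thus varied with *Arntl* and against *Dbp* in Gas. By an exact permutation test of libraries within genotypes, two-sided, 2 of 45 pairs in Gas and 0 of 45 in Sol passed an adjusted p of 0.05 (Benjamini-Hochberg over the 45 pairs), and 14 and 12 had an unadjusted p under 0.05. The smallest p that the permutations can give is 0.00139. Over 45 pairs, 1 pair at that p cannot pass unless other pairs also have a low p. In Gas 2 pairs reached it and so passed together. In Sol only *Arntl* and *Per2* did (r = -0.89, adjusted p = 0.0625 by the exact permutation test). The counts of 2 and 0 therefore do not show a difference between the muscles.

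The pairs that passed in Gas were *Arntl* with *Nr1d1* and *Per2* with *Per3*. For *Arntl* and *Nr1d1* r was 0.96 and rho 0.95 (exact permutation p = 0.00139 and 0.00556, adjusted 0.0313 and 0.109, n = 8), with r = 0.92 after leaving out the 2 libraries farthest in *Arntl*. For *Per2* and *Per3* r was 0.96 and rho 0.98 (exact permutation p = 0.00139 for both, adjusted 0.0313 and 0.0625, n = 8), with r = 0.92 after leaving out the 2 farthest in *Per2*. In Sol the r of *Arntl* and *Nr1d1* was 0.15 and their rho 0.26 (exact permutation p = 0.746 and 0.574, adjusted 0.848 and 0.807, n = 8), and the difference between the muscles was not tested. The highest correlations in Sol missed the adjusted threshold. *Per3* and *Dbp* had r = 0.99 and rho = 0.98 there (exact permutation p = 0.00278 and 0.00694, adjusted 0.0625 and 0.075, n = 8, r = 0.99 without the 2 farthest). *Arntl* and *Per3* had r = -0.99 and rho = -0.98 (exact permutation p = 0.00417 and 0.00694, adjusted 0.0625 and 0.075, n = 8, r = -0.99 without the 2 farthest). *Arntl* and *Dbp* had r = -0.98 and rho = -0.95 (exact permutation p = 0.00556 and 0.0139, adjusted 0.0625 and 0.0893, n = 8, r = -0.97 without the 2 farthest). In Gas, *Arntl* and *Dbp* had r = -0.82 and rho = -0.74 (exact permutation p = 0.00833 and 0.00972, adjusted 0.0938 and 0.109, n = 8, r = -0.87 without the 2 farthest).

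On this scale the widest gap between neighbouring libraries took 67.7% of the range for *Cry2* in Gas, where 1 library stood apart. For every other member and muscle it took 21.3% to 49.6%, the widest of these for *Arntl* in Gas. There the 3 libraries lowest in *Arntl* lay at 10.9 to 13.1 CPM and the others at 29.9 to 53.0. In Sol, *Dbp* reads per *Arntl* read were 0.207 to 0.642 in 4 libraries and 2.68 to 9.70 in the other 4. Whether the libraries form separate sets or a continuous run was not tested, and a high r can rest on either. Pairs with an absolute r of 0.9 or more were 4 of the 45 in Gas and 5 of the 45 in Sol, 8.89% and 11.1%, against 4.19% of all pairs of tested genes in Gas and 1.40% in Sol. With 1 library omitted, the smallest p that the permutations can give is 0.00417 (a WT library) or 0.00694 (an LSD1-mKO library), at which the 2 pairs called in Gas could not pass on their own, so the count of 0 without any of 7 Gas libraries is no test of them. Over the 8 omissions r stayed between 0.94 and 0.99 for *Arntl* and *Nr1d1* and between 0.92 and 0.98 for *Per2* and *Per3*. Without LSD1-mKO Gas replicate 3 the count in Gas rose to 9 of 45. Without WT Sol replicate 2, the Sol library of high ribosomal protein level, the count in Sol rose to 8. With the ribosomal protein level taken out of every library it was 16 in Sol and 2 in Gas. Permuting values after that step is not an exact test and can give too small a p, so these counts are not comparable with the others.

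**Figure D3:**
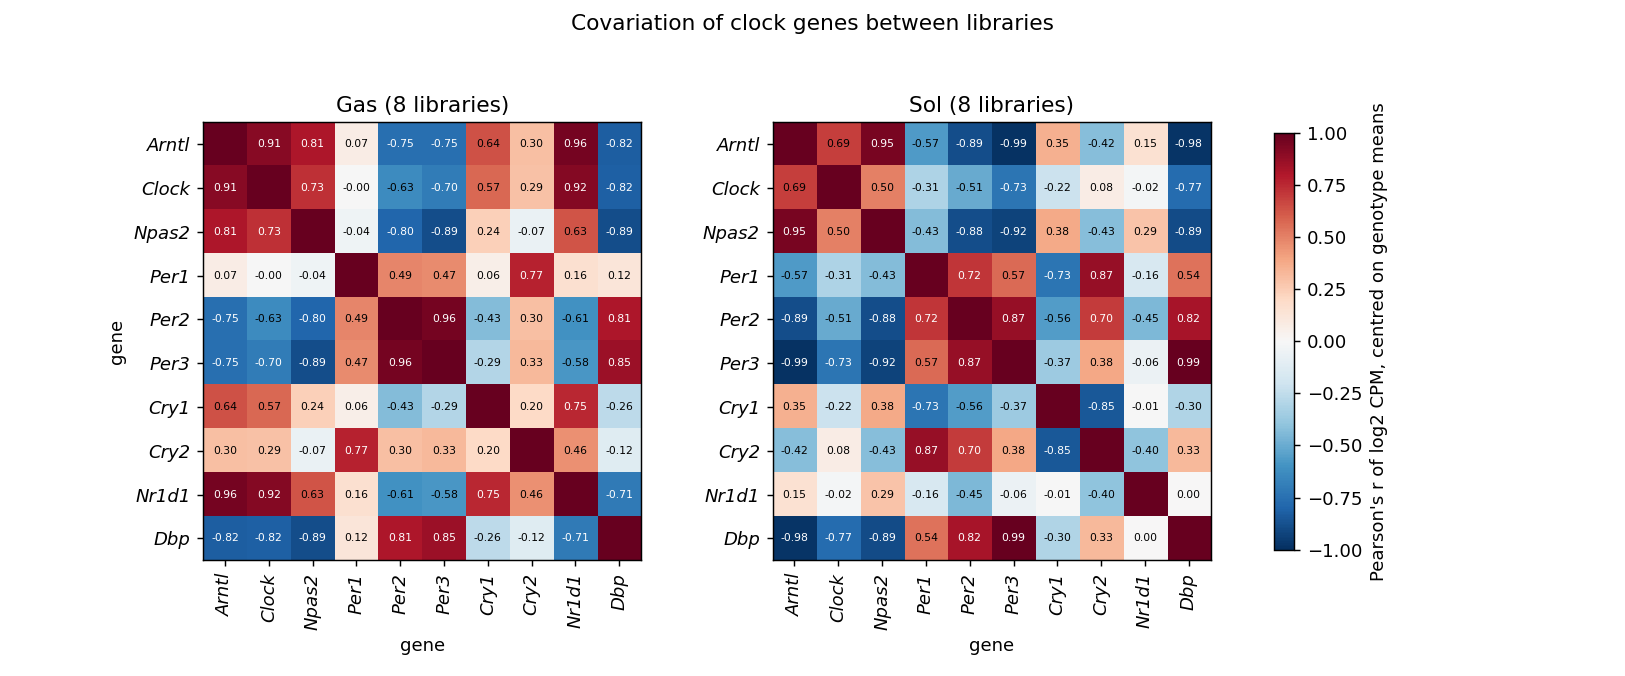
Pearson's r of log2 CPM (centred on genotype means) for each pair of clock genes over the 8 Gas and the 8 Sol libraries, from blue (-1) to red (1). *Arntl*, *Clock* and *Npas2* form 1 positive block and *Per2*, *Per3* and *Dbp* another, with negative values between them in both muscles, and *Nr1d1* joins the first block in Gas.

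Gas and Sol libraries that carry the same genotype and number were then set against each other. Over all genes, each LSD1-mKO Gas library correlated best with the Sol library of its own number. No WT Gas library did: deviations over all genes correlated at 0.13, -0.55 and -0.27 for WT replicates 1, 2 and 3. The WT libraries of high ribosomal protein level carry different numbers in the 2 muscles, Gas replicate 3 and Sol replicate 2. Their part in this was not tested, so these values do not show that WT numbers fail to pair. The correlation of a member between the muscles over the 8 such pairs, centred within genotype, was positive for 10 of 10 members. It was highest for *Per3* (r = 0.96), then *Per2* (0.83), *Dbp* (0.80), *Npas2* (0.79), *Per1* (0.77), *Nr1d1* (0.72), *Arntl* (0.70), *Clock* (0.51), *Cry2* (0.44) and *Cry1* (0.33), and rho ran from 0.33 (*Cry1*) to 0.88 (*Per3*). An r of 0.7 or more was seen for 7 of 10 members, where it was seen for 6.23% of 12843 genes tested in both muscles, and the median r was 0.743 for the members and 0.053 for all genes. The members covary with one another, so these counts are not independent, and the WT pairs in them are matched by number only. None of the 10 passed an adjusted p of 0.05 over the 10 members, by r or by rho. By exact permutation test (n = 8), p was 0.0125 for the r and 0.0278 for the rho of *Per3* (adjusted 0.104 and 0.132), 0.0208 for both of *Per2* (adjusted 0.104 and 0.132), and 0.0417 for the rho of *Npas2*. For the other r values it was 0.0556 (*Npas2*) or more. These 2 members with p under 0.05 for r compare with 4.82% of the 12843 genes, none of which passed when adjusted over all. Without the 2 pairs farthest from the median in Gas, r was 0.98 for *Per3*, 0.84 for *Per2* and 0.62 for *Npas2*, 0.55 for *Arntl*, 0.43 for *Dbp*, 0.33 for *Clock*, 0.30 for *Nr1d1*, 0.25 for *Per1*, 0.24 for *Cry2* and -0.33 for *Cry1*. The r of *Dbp*, *Nr1d1*, *Per1* and *Cry1* thus rested largely on the 2 pairs, which for *Dbp* were LSD1-mKO replicates 4 and 5.

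**Figure D4:**
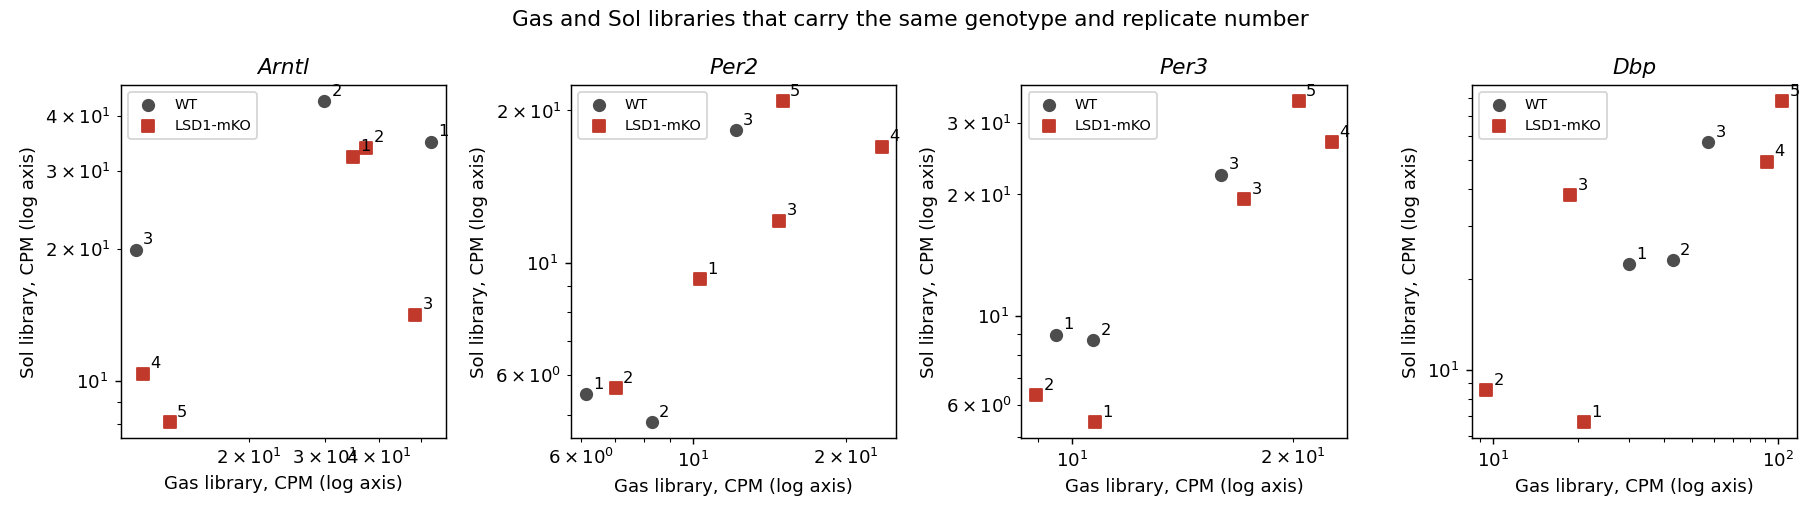
CPM in the Sol library against CPM in the Gas library (log axes) of the same genotype and replicate number, for *Arntl*, *Per2*, *Per3* and *Dbp*, with circles for WT and squares for LSD1-mKO. Over all genes, no WT Gas library correlated best with the Sol library of its own number. LSD1-mKO replicates 4 and 5 lie at 1 end in each panel, low in *Arntl* and high in *Per2*, *Per3* and *Dbp*, and LSD1-mKO replicate 3 is high in *Arntl* in Gas and low in Sol.

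The loss of LSD1 changed none of the 10 members past the threshold in either muscle. In Gas 0 of 10 were called at an adjusted p under 0.05 by edgeR's quasi-likelihood test, where 0.0307% of 13040 genes were, and in Sol 0 of 10, where 0.967% of 13342 were. DESeq2 also called 0 members in Gas, where it called 118 of 14375 genes, but 1 in Sol, where it called 580 of 14596. Likewise, edgeR's exact test called 0 in Gas (104 of 13040 genes) and 1 in Sol (560 of 13342). *Nr1d1* in Gas (9.06% of genes) and *Nr1d1* and *Cry2* in Sol (15.5%) had an unadjusted p under 0.05. The median log2 fold change of the members was 0.18 in Gas and -0.01 in Sol, against 0.01 and -0.01 for all tested genes. The interaction of genotype and muscle called 0 of 10 members and 0% of 13749 genes, with 0 members and 4.88% of genes at an unadjusted p under 0.05. For it DESeq2 called 0 members too, and 20 of 15565 genes. Markers of fat were lower in LSD1-mKO for 4 of 4 genes in both muscles, none called, with sums of 588 to 1924 CPM in WT and 510 to 681 in LSD1-mKO Gas, and of 547 to 1178 and 405 to 604 in Sol. Markers of fibroblasts were lower for 4 of 4 genes in Gas, with sums of 1091 to 1655 CPM in WT and 765.5 to 903.6 in LSD1-mKO. In Sol 3 of 4 fibroblast genes were higher. Endothelial markers were lower for 2 of 3 genes in Gas and 3 of 3 in Sol, and satellite cell markers higher for 2 of 2 in both muscles. None of these was called either. The part of any of these cell types in the values below was not tested.

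*Cry2*, a repressor of the activator pair, had the largest positive difference in both muscles. It was at 55.3, 55.5 and 58.9 CPM in WT Gas and at 74.3, 64.1, 231, 81.6 and 77.9 CPM in LSD1-mKO Gas. Every LSD1-mKO library lay above every WT library, the only such case among the members in Gas, where 4.13% of genes lay the same way. The log2 fold change was 0.90 ± 0.41 (adjusted p = 0.552, edgeR quasi-likelihood test), and it was 0.40 without LSD1-mKO Gas replicate 3. In Sol, *Cry2* was at 39.3, 32.2 and 55.6 CPM in WT and at 77.6, 50.7, 78.5, 63.2 and 66.9 CPM in LSD1-mKO, where only LSD1-mKO replicate 2 fell within the WT range. The log2 fold change there was 0.66 ± 0.20 (adjusted p = 0.142), and 0 of 10 members lay wholly above WT in Sol, where 6.33% of genes did.

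*Nr1d1*, the repressor of *Arntl*, had the largest negative difference in both muscles. It was at 409, 307 and 148 CPM in WT Gas and at 141, 170, 246, 96.9 and 101 CPM in LSD1-mKO Gas, so that WT replicate 3 lay among the LSD1-mKO libraries. In Sol it was at 252, 288 and 179 CPM in WT and at 61.1, 144, 185, 88.4 and 85.3 CPM in LSD1-mKO, where LSD1-mKO replicate 3 lay just above the lowest WT library. In Gas the log2 fold change came to -0.93 ± 0.37 (adjusted p = 0.525, edgeR quasi-likelihood test), and the Sol libraries gave -1.10 ± 0.31 (adjusted p = 0.125). In Sol, DESeq2 and edgeR's exact test did call it (adjusted p = 0.0224 and 0.023), where they called 580 of 14596 and 560 of 13342 genes. Over the alternatives that kept all libraries its adjusted p ran from 0.0224 to 0.223. Unlike *Arntl* and *Dbp*, its order among the LSD1-mKO Sol libraries did not follow the replicates: replicate 1, high in *Arntl*, was the lowest.

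For *Dbp*, *Npas2* and *Clock*, the genotype difference was smaller than its error in both muscles. It was 0.18 ± 0.70 in Gas and 0.06 ± 0.68 in Sol for *Dbp* (log2 ± SE), 0.17 ± 0.56 and -0.16 ± 0.61 for *Npas2*, and 0.18 ± 0.37 and -0.08 ± 0.27 for *Clock*. For *Arntl* it was -0.11 ± 0.55 in Gas and -0.74 ± 0.45 in Sol, where it was larger than its SE. *Per2* (0.69 ± 0.37 and 0.43 ± 0.47), *Per3* (0.41 ± 0.32 and 0.45 ± 0.57) and *Per1* (0.26 ± 0.27 and 0.17 ± 0.21) were positive in both muscles, and *Cry1* was 0.14 ± 0.26 in Gas and -0.26 ± 0.19 in Sol. Their adjusted p was between 0.47 and 0.981 by the quasi-likelihood test.

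**Figure D5:**
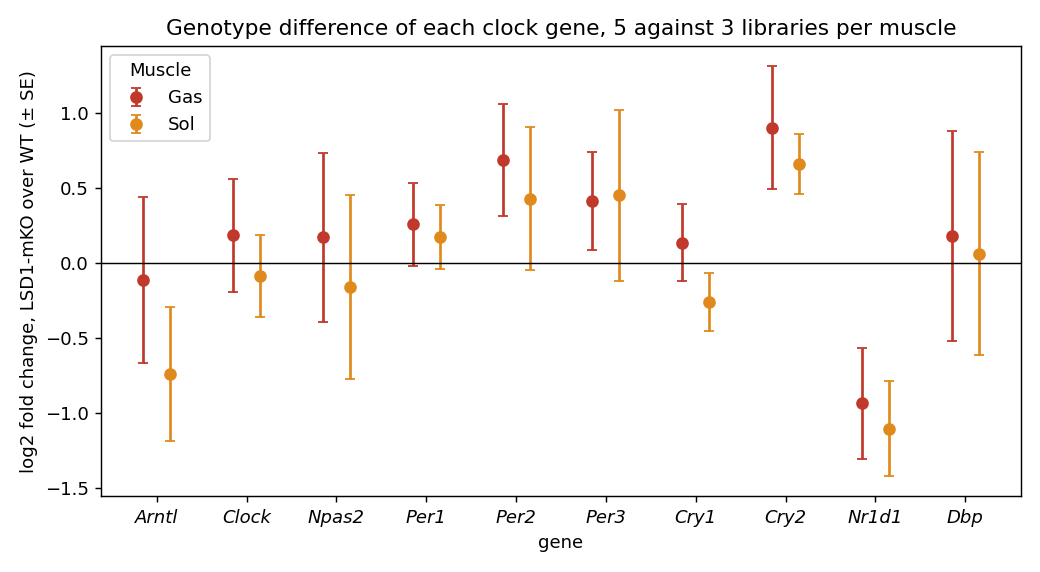
Log2 fold change of LSD1-mKO over WT (± SE, edgeR) of the 10 clock genes in Gas and Sol, 5 against 3 libraries per muscle. *Cry2* lies highest and *Nr1d1* lowest in both muscles, with no member past an adjusted p of 0.05, and the error bars are widest for *Dbp* and then *Npas2* in both.

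Other parts of the loop were followed as a list of 19 accessory clock genes, of which 17 could be tested. None was called between genotypes in Gas or Sol (1 and 0 had an unadjusted p under 0.05), and the median log2 fold change was -0.01 and -0.11. The largest differences in Gas were those of *Bhlhe41* (-0.66 ± 0.32), *Bhlhe40* (-0.54 ± 0.26), both repressors that bind E-boxes, and *Arntl2* (-0.52 ± 0.45), the paralog of *Arntl*. Those in Sol were *Usp2* (0.30 ± 0.18), a deubiquitinase, *Tef* (0.26 ± 0.25), a PAR bZIP relative of *Dbp*, and *Nfil3* (-0.26 ± 0.36), which competes at D-boxes. Of 10 genes of the glucocorticoid response, 0 were called in either muscle (2 and 2 at an unadjusted p under 0.05). In Gas the largest differences were those of *Ddit4* (1.82 ± 0.57, adjusted p = 0.426), an inhibitor of mTORC1, *Errfi1* (0.93 ± 0.38) and *Klf9* (-0.54 ± 0.27), and in Sol those of *Mt1* (-0.75 ± 0.35), *Cdkn1a* (-0.61 ± 0.22) and *Klf9* (-0.55 ± 0.20). Of 6 clock outputs of muscle, 0 were called (0 and 1 at an unadjusted p under 0.05). DESeq2 and edgeR's exact test called 0 genes of these 3 lists. *Tcap* (-0.65 ± 0.47), *Myod1* (-0.47 ± 0.45) and *Ucp3* (-0.39 ± 0.33) differed most in Gas and *Ucp3* (-0.65 ± 0.29), *Tcap* (-0.62 ± 0.32) and *Pdk4* (-0.48 ± 0.23) in Sol, none past the threshold.

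Between the muscles, *Per1* was the only member called, and in LSD1-mKO only. In LSD1-mKO it was lower in Sol by 0.66 ± 0.22 (log2 ± SE, adjusted p = 0.039, edgeR quasi-likelihood test over the 16 libraries), 1 of 10 members, where 24.5% of 13749 genes were called. Its level was 92.3, 60.1, 141, 103 and 77.9 CPM in LSD1-mKO Gas and 62.0, 39.4, 78.8, 58.5 and 60.4 CPM in LSD1-mKO Sol, with overlap, and Sol was the lower of each pair of the same number. In WT it was at 90.3, 59.8 and 88.5 CPM in Gas and at 44.3, 47.2 and 66.5 CPM in Sol, with a log2 difference of -0.59 ± 0.29 that missed the threshold (adjusted p = 0.167), where 0 of 10 members and 17.0% of genes were called. With the number as a block in both genotypes, the difference in LSD1-mKO was -0.64 ± 0.14 (adjusted p = 0.00801, edgeR quasi-likelihood test). The LSD1-mKO pairing was taken from these data and not the labels, and the WT libraries, blocked by number too, share in its estimate of the spread. In the fit without the block the call was lost without any 1 of 7 LSD1-mKO libraries, and with a covariate for ribosomal protein level (adjusted p = 0.0645), but the difference stayed between -0.80 and -0.50 over the omitted libraries and was -0.66 with the covariate. Over the alternatives that kept all libraries or left out the 3 of high ribosomal level its adjusted p ran from 0.00801 to 0.0645. Each count table holds 1 muscle, so muscle and table cannot be told apart. Markers of blood cells summed to 121 to 295 CPM in Gas and 68.5 to 156 in Sol and those of endothelium to 173 to 334 and 307 to 455, and their part in the difference was not tested.

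*Clock* lay the other way, higher in Sol by 0.82 ± 0.40 in WT and 0.56 ± 0.31 in LSD1-mKO, without passing the threshold (adjusted p = 0.165 and 0.193, edgeR quasi-likelihood test). The other 8 members had differences between -0.65 and 0.37. In the order of the 4 group means, the ranges of neighbouring groups overlapped in every case for all 10 members, and the highest group mean was between 1.25 times (*Npas2*) and 2.55 times (*Nr1d1*) the lowest.

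Some accessory clock genes were lower in Sol. *Rora*, the activator that shares RORE sites with *Nr1d1*, was called in WT (-1.30 ± 0.37, adjusted p = 0.024, edgeR quasi-likelihood test). It was the only 1 of 17 called there, where 8.25% of genes were called lower. In LSD1-mKO 5 of 17 were called, all lower in Sol, where 11.6% of genes were called lower. Among them were *Rora* (-1.31 ± 0.29), the ubiquitin ligase subunit *Btrc* (-0.83 ± 0.15), *Nfil3* (-1.10 ± 0.38) and *Tef* (-0.59 ± 0.20). The median log2 difference of the 17 was -0.28 in WT and -0.25 in LSD1-mKO, against -0.01 and 0.00 for all genes. Of the 10 glucocorticoid response genes, 3 were lower in Sol in WT, where 8.25% of all genes were called lower, and 5 in LSD1-mKO. *Tsc22d3* (GILZ) was lower by 1.75 ± 0.36 in WT and by 1.93 ± 0.28 in LSD1-mKO, *Sgk1*, a kinase, by 1.84 ± 0.43 and 1.42 ± 0.33, and *Fkbp5*, a chaperone of the glucocorticoid receptor, by 0.59 ± 0.18 and 0.66 ± 0.14. *Ddit4* (-2.82 ± 0.42) and *Klf9* (-0.81 ± 0.22) were called in LSD1-mKO and not in WT by edgeR's quasi-likelihood test, but the difference of *Klf9* in WT was as large (-0.81 ± 0.29), and DESeq2 called it there too. Of the 6 clock outputs, *Ucp3* (-0.98 ± 0.29) and the glucose transporter *Slc2a4* (-0.49 ± 0.14) were called lower in Sol in LSD1-mKO, as were 11.6% of all genes. In WT 0 were called, against 17.0% of all genes in either direction. The hexokinase *Hk2*, at 0.55 ± 0.21 in LSD1-mKO, missed the threshold (adjusted p = 0.0648, edgeR quasi-likelihood test) but was called higher in Sol with the replicate block (0.59 ± 0.15, adjusted p = 0.0168) and by DESeq2 (adjusted p = 0.0497). That a gene passed in 1 genotype and not in the other does not show that the genotypes differ: the interaction, by edgeR or DESeq2, called 0 genes of any of these lists (1 glucocorticoid gene had an unadjusted p under 0.05).

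The genes most like *Arntl* and *Dbp* were ranked by r of log2 CPM over all 16 libraries, centred on the 4 group means, among 9677 genes that were no members and had a mean of at least 5 CPM. Among the 5 most like *Arntl* were the histone demethylase *Kdm4a* (r = 0.90), the coactivator *Ppargc1a* (0.89), *Lcn2* (0.85) and *Ell* (0.85). Among the 5 most like *Dbp* were *Fam76a* (r = 0.88), *Dgat2* (0.87), an enzyme of triglyceride synthesis, the kinase *Mylk4* (0.84) and *Hlf* (0.84), a PAR bZIP relative of *Dbp*. Among the accessory genes, *Tef* (0.82), *Ciart* (0.80) and *Nr1d2* (0.78) also followed *Dbp*, and *Nfil3* followed *Arntl* (0.81). The genes of the glucocorticoid list had an r with *Dbp* between -0.64 (*Cdkn1a*) and 0.47 (*Klf9*). These are descriptions with no test. Depth and ribosomal protein level differed between the libraries, and RNA quality may have too. Their part in these correlations was not tested.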

How the data were processed

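Single-end reads of 75 bp came from the poly(A) RNA of whole muscle. They were aligned by the authors with STAR (genome mm10). featureCounts 1.5.2 then counted them, per the file headers without a strand setting. The deposited tables hold raw counts per gene for each muscle. The authors' tables of comparisons (log2 fold changes and p-values) were not used. All count columns were mapped to samples by the bracketed names in the titles, and 0 columns were left unmapped.

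Counts were analysed with edgeR 4.0.16 (R 4.3.3): filterByExpr with a minimum count of 10, TMM scaling and the two-sided quasi-likelihood F-test, per muscle for the genotypes and over all 16 libraries for the interaction and for Sol against Gas. Calls have a Benjamini-Hochberg adjusted p under 0.05 over all genes tested. The scripts were tested on simulated data. Correlations used log2 CPM with a prior count of 0.5 and exact permutations within genotype. DESeq2 1.42.0 and edgeR's exact test, RLE scaling, no filter, a replicate block, a ribosomal protein covariate and omitted libraries were tried. Whether replicate numbers pair libraries was checked by correlating deviations from group means over all genes. Each LSD1-mKO Gas library correlated best with the Sol library of its own number (0.25 to 0.39), so these numbers were taken to pair the muscles, from the data and not the labels. No WT Gas library correlated best with its own number, and the WT libraries of high ribosomal protein level differ in number between the muscles. Lengths and overlaps come from GENCODE exons (GRCm38) and promoters from RefSeq, whereas reads were counted on another annotation.

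The members and lists were chosen with earlier results of these data known. Text names all members, called genes and the 3 largest differences of each list in each muscle, and the 5 genes most like *Arntl* and *Dbp*, except that some of these genes are not reported here. Members had 14 reads or more in every library.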

Additional observations from a re-analysis of the deposited data

Results flagged for a closer look

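*Cry2* in LSD1-mKO Gas replicate 3, at 231 CPM, stood apart from the other 4 libraries of its group, the nearest of which was at 81.6 CPM. Its gap to that neighbour took 0.895 of the whole range of the group, above Dixon's 95% value of 0.71 for 5 samples. The 10 members and the number of *Dbp* reads per *Arntl* read were examined in the 2 LSD1-mKO groups, 22 sets of values in all, of which chance would single out about 1.1. The WT groups of 3 were too small to be examined. The same library held the highest *Per1* of all 16, at 141 CPM, and the highest sum of the 10 members, at 799 CPM, and its ribosomal protein level was 7.20, within the range of the other Gas libraries.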

How the results depend on the processing

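Calls of members between genotypes stayed at 0 of 10 in Gas, and for the interaction, under every setting tried, including each omitted library (0 to 0). In Sol they stayed at 0 of 10 except for 1 with DESeq2, 1 with edgeR's exact test (*Nr1d1* in both) and 1 with the replicate block (*Dbp*). Over all genes in Sol, DESeq2 called 580 of 14596 and the exact test 560 of 13342. In LSD1-mKO, where the numbers were taken to pair the muscles, the block changed the call of no gene named but *Hk2*. In WT, deviations over all genes correlated at 0.13, -0.55 and -0.27 between Gas and Sol libraries of the same number. There *Fkbp5* lost its call with the block (adjusted p = 0.0722, edgeR quasi-likelihood test). The numbers do not pair the genotypes, whose libraries of the same number and muscle correlated at -0.18 to 0.32. With the replicate block between genotypes, the 4 calls over all genes in Gas became 3 and the 129 in Sol became 412, and the log2 fold change turned for *Arntl* (0.58) and *Dbp* (-1.43) in Gas and for *Clock* (0.20), *Npas2* (0.53), *Per3* (-0.46), *Dbp* (-1.25, adjusted p = 0.0425) and *Nfil3* (0.052) in Sol. With the ribosomal protein covariate it turned in Gas for *Clock* (-0.24), *Npas2* (-0.13), *Cry1* (-0.0064) and *Tcap* (0.057). Without the 2 Gas libraries of highest ribosomal level, a setting added after seeing the data, it turned for *Cry1* (-0.10) and *Dbp* (-0.047). Omitting 1 library, *Arntl* in Gas ran from -0.50 to 0.50, *Clock* from -0.10 to 0.38, *Npas2* from -0.20 to 0.70, *Cry1* from -0.092 to 0.50, *Dbp* from -0.30 to 0.44, *Tcap* from -1.04 to 0.11 and *Ucp3* from -0.70 to 0.22, and in Sol *Clock* from -0.28 to 0.19, *Npas2* from -0.52 to 0.60, *Dbp* from -0.42 to 0.67 and *Nfil3* from -0.55 to 0.27. Calls in Sol against Gas stayed at 0 in WT and went from 1 to 0 in LSD1-mKO with the ribosomal covariate, and 0 to 1 with a library omitted (0 without LSD1-mKO Gas replicates 1, 3 or 4 or Sol replicates 1, 2, 4 or 5). Of the 16 fits with a library omitted, *Rora* and *Fkbp5* lost their call in WT in 4 each and *Nfil3*, *Tef* and *Ucp3* theirs in LSD1-mKO in 7, 6 and 2. Of the 45 pairs, 1 passed in Gas without centring, 0 by Spearman's rho and 0 without the 2 high ribosomal libraries, where the smallest possible p was 0.0208, and 0 to 9 with a library omitted. In Sol 2 passed without centring, 16 with ribosomal residuals (where the permutation test is not exact) and 0 to 8 with a library omitted. The r of *Clock* and *Nr1d1* in Sol turned to 0.063 without centring and 0.14 with residuals, and ran from -0.22 to 0.40 with a library omitted, and that of *Arntl* and *Nr1d1* from -0.079 to 0.71. Between Gas and Sol, 0 to 1 of 10 members passed with a number omitted (*Npas2*, without WT replicate 1 or 2), and *Cry1* ran from -0.55 to 0.58. The cause of these shifts was not tested. With 8 libraries a muscle the exact tests reach no p under 0.00139, and *Npas2*, with 14 reads in its shallowest library, had the fewest reads.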
